A study of Mus musculus with 11 samples.

Results

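Rod and cone photoreceptors turn light into an electrical signal, and 39 genes of this machinery are described here in mouse retinal pigment epithelium (RPE)/choroidal samples collected after nanosecond laser treatment. The genes were chosen by name, as genes of phototransduction, of the outer segment and of photoreceptor identity, and all 39 were found among the 14602 genes of the count table. Of the 39 genes, 11 are used mainly by rods, 9 mainly by cones and 19 by both.

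In the dark a photoreceptor holds cyclic nucleotide-gated channels open with cyclic GMP. An opsin that has absorbed light activates the G protein transducin, which in turn switches on a phosphodiesterase that breaks down cyclic GMP, and the channels close. Arrestin and a receptor kinase then shut the opsin off, and guanylate cyclases with their calcium-sensing activator proteins restore cyclic GMP. Rods and cones use related but separate genes for most of these steps. The outer segments in which they take place lie against the RPE, which engulfs their shed tips. Photoreceptor RNA was counted here in RPE tissue from which the neural retina was taken away, and how it came there was not tested. In these bulk samples, more photoreceptor material and more RNA per photoreceptor cannot be told apart.

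RNA sequencing covered 6 naïve control and 5 laser treated C57BL/6J mice, a wild type strain, all of them 12 months old when the tissue was taken. Laser treated mice had received the 2RT nanosecond laser in 1 eye at 9 months of age, 3 months before collection, whereas the control mice of the same age were never treated. The laser spots were confined to the central retina, while the whole RPE/choroid of the eye cup was sampled after the neural retina was removed. RNA from each sample was pre-amplified with a SmartSeq v4 kit, made for full-length transcripts in small RNA inputs, and the reads were counted per gene. Library totals ranged from 25700881 to 38755994 counts. Levels are given as CPM, the count of a gene scaled to a fixed library total after TMM normalization, and single genes are ranked by level only as CPM per kilobase of annotated exon. Sums over gene lists and ratios of genes are in plain CPM and serve to compare libraries. Each library was taken as 1 mouse, since the labels count 6 and 5 mice, and p-values measure the spread between these libraries. The transcript files carry a label, R1 for naïve control libraries 1, 2 and 3 and laser treated libraries 1 and 2, and R2 for the other 6 libraries. Its meaning is not given in the sources used here.

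The photoreceptor genes held between 0.609% and 3.05% of all counts of a library, with a median of 1.10%. Per kilobase, the highest mean levels over the 11 libraries were those of Rom1, at 562 CPM per kilobase, Gnat1, at 526, and Prph2, at 488. The order depended on the group, since in naïve control samples Gngt1, at 575, and Pdc, at 561 CPM per kilobase, lay above Gnat1, at 517, whereas in laser treated samples they had 155 and 224 and Gnat1 had 536. It also depends on the length used. Gngt1 has 3515 annotated exon bases but 1183 in its longest protein-coding transcript, and with the latter length it would rank higher. Rom1 and Prph2 encode paired membrane proteins of the outer segment disc rim, and Gnat1 encodes the transducin alpha subunit of rods. Among the cone genes the short wavelength opsin gene Opn1sw was highest, at 68.6 CPM per kilobase, and the cone channel genes Cngb3 and Cnga3 were lowest of all 39 genes, at 1.32 and 0.226 CPM per kilobase. Markers of the RPE were present in every library. The visual cycle genes Rpe65 and Rgr and 8 other RPE genes together ranged from 74358 to 128108 CPM, although Best1, an RPE channel gene, had at most 3.08 CPM and was at 0 counts in 3 libraries.

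Summed over the 39 genes, naïve control libraries 1 to 6 had 25661, 12770.3, 30161, 9461, 10917 and 8188 CPM, and laser treated libraries 1 to 5 had 6391, 6673, 19206, 18691 and 6031 CPM. Naïve control libraries 1 and 3 and laser treated libraries 3 and 4 therefore stood above the others, and the groups overlapped. The same libraries led gene by gene. Naïve control library 1 was among the 4 highest libraries for 39 of the 39 genes, naïve control library 3 for 38, laser treated library 3 for 35 and laser treated library 4 for 32. Naïve control library 3 had the highest value of any library for 27 genes, and laser treated library 5 the lowest for 21. For the 37 genes with counts in every library, the highest library exceeded the lowest by 1.70-fold to 21.9-fold, with a median of 5.96-fold, and 30 of the 37 exceeded 5-fold. Over the 8834 genes of the whole table with a mean of at least 10 CPM and counts in every library, the median was 2.35-fold. The genes that varied least were Abca4 (1.70-fold), Slc24a1 (1.75-fold) and Unc119 (2.14-fold), which encode an outer segment lipid transporter, the rod sodium, calcium and potassium exchanger and a lipid-binding transport protein.

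**Figure D1:**
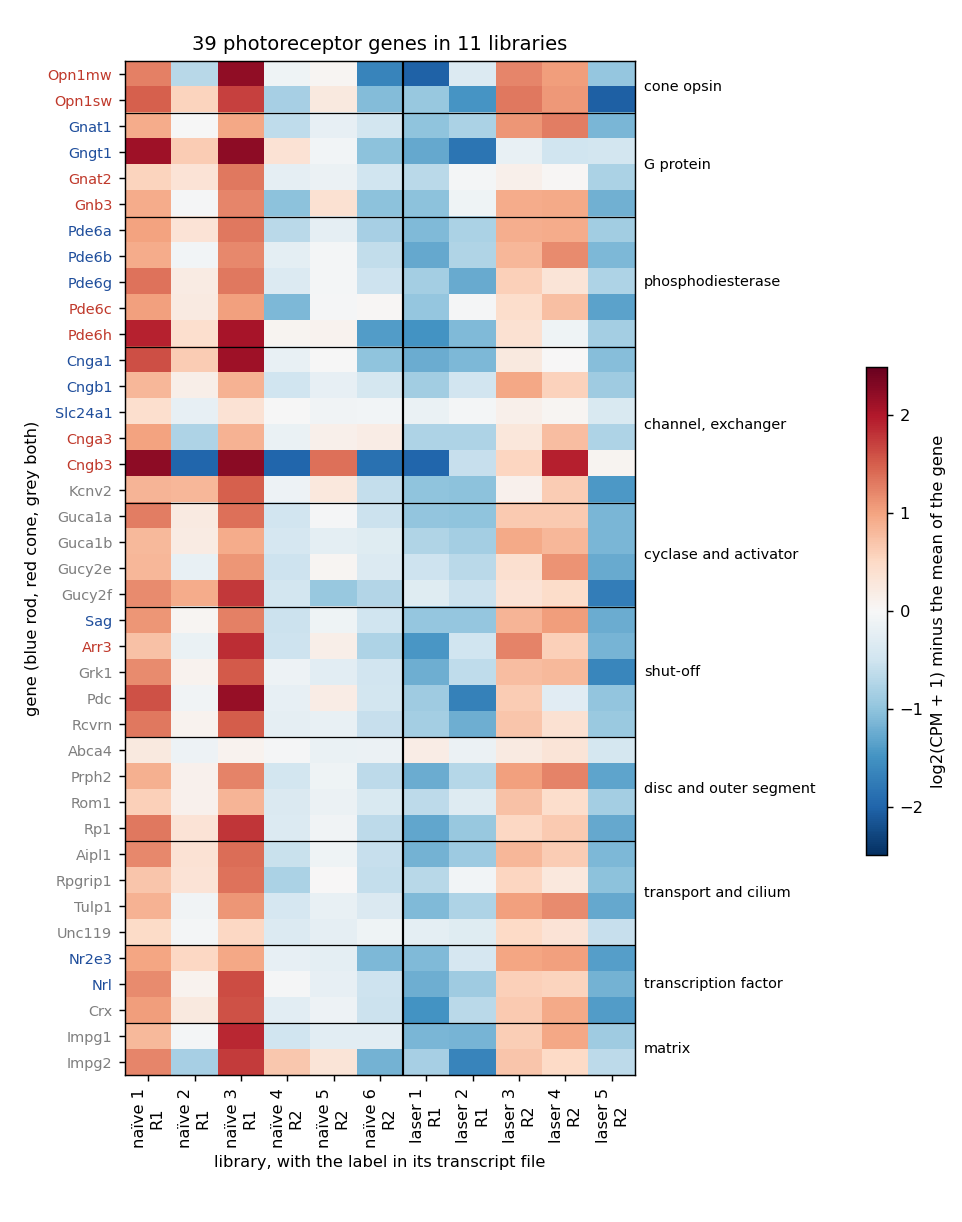
Each row is 1 of 39 photoreceptor genes and each column 1 of 11 libraries (6 naïve control, left of the vertical line, and 5 laser treated, right of it), and colour gives log2(CPM + 1) minus the mean of the gene over the libraries, with the scale ending at 2.5 in both directions. Naïve control libraries 1 and 3 and laser treated libraries 3 and 4 are red for nearly every gene, and laser treated libraries 1, 2 and 5 are blue.

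The transcription factors among the 39 genes, Crx, Nrl and Nr2e3, establish and maintain photoreceptor identity. Crx acts in rods and cones, Nrl sets rod fate, and Nr2e3 represses cone genes in rods. Differences are given as log2FC, the log2 of the level in laser treated over that in naïve control samples, with its standard error (SE) and its p adjusted over all genes by the Benjamini-Hochberg method in edgeR's quasi-likelihood test. The log2FC was -0.57 ± 0.52 for Crx, -0.78 ± 0.49 for Nrl and -0.17 ± 0.50 for Nr2e3 (SE, edgeR adjusted p = 0.662, 0.479 and 0.918). Nrl had 163, 76.5, 224, 69.9, 61.8 and 49.6 CPM in naïve control libraries 1 to 6 and 30.1, 38.4, 108, 106 and 31.0 CPM in laser treated libraries 1 to 5. The groups overlapped, and the 4 libraries with the highest sums were again the highest. Nr2e3 shares 61 exon bases with Gm15507 on the same strand.

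CRX recognises a short core, TAATCC, or GGATTA when read on the other strand. Promoter windows of 300 bases, from 250 before to 50 after the RefSeq start site on GRCm38.p6, were at hand for 29 of the 39 genes. Of these, 13 genes (44.8%) held the core on either strand, where 2199 of the 27025 genes of the promoter table (8.14%) did. The share was 4 of 8 rod genes, 1 of 6 cone genes and 8 of 15 genes of both cell types. TGCTGA, a part of the motif known for NRL, was found on either strand in 7 of the 29 genes (24.1%), close to its share of 21.7% over the promoter table, and neither motif contains the other. A match of these letters is not evidence of binding. The 30 bases around each match in the rod and cone genes are printed below on the strand of the gene with the core in capitals, since these are the rod and cone genes that share it:
Gngt1, chr6:3993952-3993981, plus strand, core from position -44 relative to the start site: tcatattaggggGGATTAtgaagaagcttt
Cnga1, chr5:72642963-72642992, minus strand, core from position -228: agtgtctcatttTAATCCtaatgataaact
Cngb1, chr8:95306626-95306655, minus strand, core from position -58: ttctgcacatgcTAATCCtttgcacccggc
Cngb1, chr8:95306593-95306622, minus strand, core from position -25: tctagtgccaatTAATCCtggctgggtctg
Sag, chr1:87803581-87803610, plus strand, core from position -87: taaagaggtttaGGATTAaaaaaaaaaaaa
Gnat2, chr3:108093035-108093064, plus strand, core from position -19: gggacaatccccGGATTAggaaggagctct
The stretches of Gngt1, Cnga1 and Gnat2 lie within exons of the GENCODE M21 annotation, whose transcripts of these genes can start further upstream than the RefSeq start, and those of Cngb1 and Sag lie outside annotated exons. For Sag, the rod arrestin gene, the whole 250 bases before the start site, chr1:87803430-87803679 on the plus strand, are shown because they hold the core outside any annotated exon: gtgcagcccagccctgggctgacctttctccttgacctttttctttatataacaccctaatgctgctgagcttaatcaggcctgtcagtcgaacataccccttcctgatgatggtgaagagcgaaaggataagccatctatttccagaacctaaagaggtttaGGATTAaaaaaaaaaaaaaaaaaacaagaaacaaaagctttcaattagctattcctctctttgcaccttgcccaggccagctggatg

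To examine whether photoreceptor RNA differed 3 months after the laser, the groups were compared over all 11 libraries. Of the 39 genes, 37 had a negative log2FC, that is a lower level in laser treated samples, where 51.5% of all genes did, and the median log2FC was -0.51 against -0.02 over all genes. None of the 39 genes passed an adjusted p of 0.05, nor did any of the 14602 genes (0.0%) with edgeR's quasi-likelihood test. At an unadjusted p under 0.05, 5 of the 39 genes differed in either direction, where 15.9% of all genes did. All 5 were lower, where 7.68% of all genes were, and 0 were higher, where 8.24% were. The count of 5 depended on single libraries, as it was 1 without naïve control library 3, 2 without naïve control library 1 or without laser treated library 1, 2 or 5, and up to 7 without laser treated library 3. With the replicate number as a block it was 12, where 8.79% of all genes were lower at that level, although replicate numbers did not pair the samples. DESeq2, which called 502 of all genes (3.44%), called 1 of the 39 genes, Gngt1. On simulated data 27.7% of what DESeq2 called was false, against 8.23% for edgeR. Those data were drawn for each gene separately with the spread that edgeR had estimated, and without libraries high for many genes at once. They therefore cannot tell whether the DESeq2 call of Gngt1 is false. There was no photoreceptor gene whose groups did not overlap, where this held for 2.26% of all genes. The 5 lower genes were Gngt1, Cnga1, Pde6h, Pdc and Kcnv2.

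**Figure D2:**
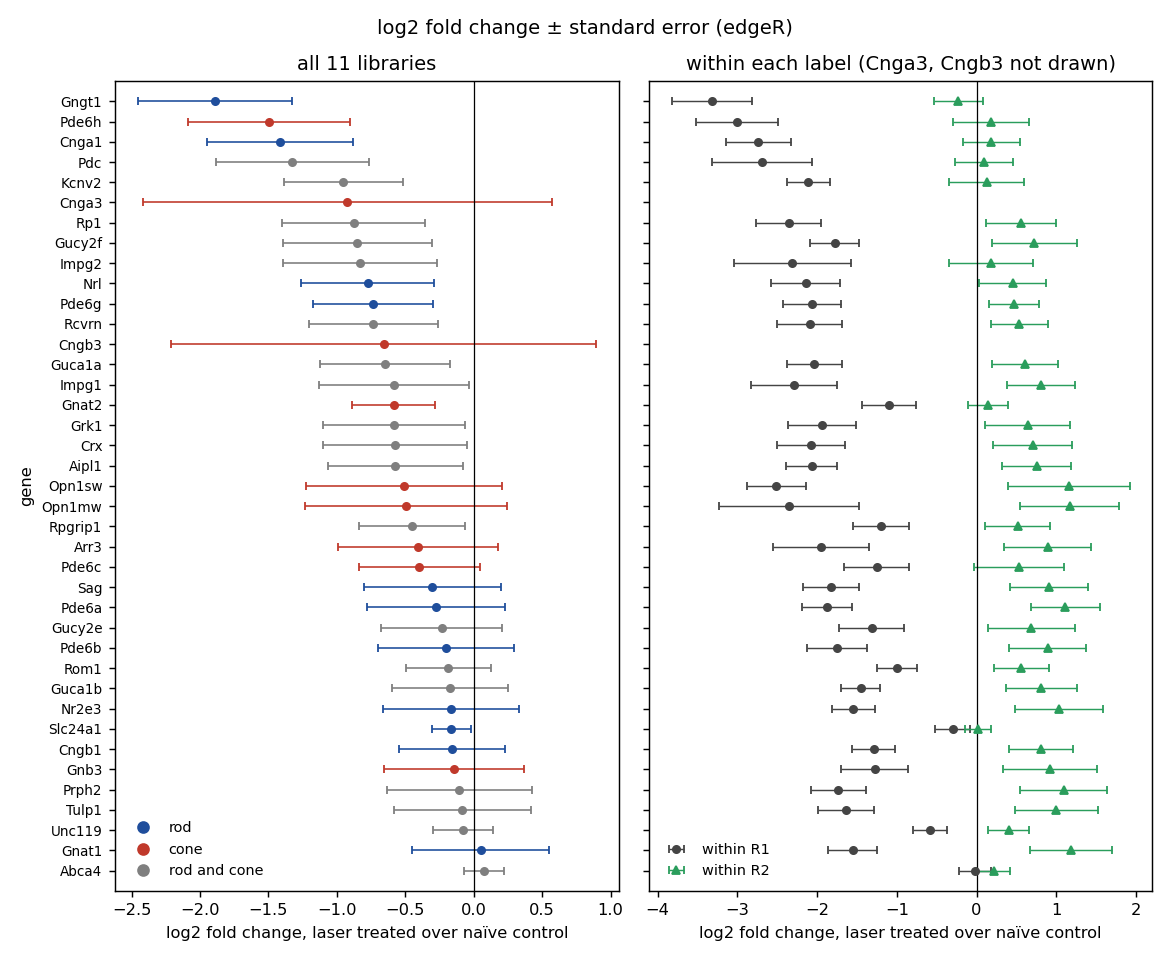
Points are log2 fold changes of the 39 genes, laser treated over naïve control, with bars of 1 standard error from edgeR. The left panel uses all 11 libraries and colours genes by cell type, and 37 of the 39 points lie below 0. The right panel gives the same difference within the libraries labelled R1, where all drawn genes lie below 0, and within R2, where all drawn genes but Gngt1 lie above 0. Cnga3 and Cngb3 are left out of the right panel since libraries of theirs were at 0 counts.

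Transducin couples the opsin to the phosphodiesterase. Gnat1, the rod alpha subunit gene on chromosome 9 of GRCm38 from 107674474 to 107679712, had the highest mean count of the 39 genes. It had 2514, 1321, 2590.3, 860.3, 1149 and 963 CPM in naïve control libraries 1 to 6. In laser treated libraries 1 to 5 it had 663, 768, 2864, 3223 and 598 CPM, so that laser treated libraries 3 and 4 exceeded every naïve control library while the other 3 lay below all of them. The means were 1566 ± 780.2 and 1623 ± 1304 CPM (SD, n = 6 and 5). The log2FC of Gnat1 was 0.05 ± 0.50 (SE, edgeR adjusted p = 0.977), and of the 39 genes only Gnat1 and Abca4 had a positive value. The sign of Gnat1 turned to -0.17 once each library was corrected for GC content and to -0.32 with the TPM of the transcript files.

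Gngt1, the gamma subunit of rod transducin, lies on chromosome 6 from 3993792 to 3997436 and had the lowest log2FC of the 39 genes. It had 3958, 1414, 4268, 1175, 873 and 447 CPM in naïve control libraries 1 to 6 and 374, 255, 801, 643 and 658 CPM in laser treated libraries 1 to 5. Laser treated libraries 3 and 4, which matched naïve control libraries 1 and 3 for Gnat1, did not do so for Gngt1, and the groups overlapped through naïve control library 6. The means were 2023 ± 1654 and 546 ± 224 CPM (SD, n = 6 and 5), with a log2FC of -1.89 ± 0.56 (SE, edgeR adjusted p = 0.179). DESeq2 gave an adjusted p of 0.0315, and the other alternatives gave between 0.0908 without naïve control library 6 and 1.00 with TPM. The log2 ratio of Gngt1 to Gnat1 in the same library was 0.07 ± 0.71 in the controls and -1.29 ± 0.96 after laser treatment (SD, n = 6 and 5). It was lowest, at -2.33, in laser treated library 4. This ratio follows from the unlike log2FC of both genes and is a description.

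The transcript files allowed the part of the Gngt1 transcript that reads were assembled over to be compared. Of the 1183 exon bases of its longest protein-coding transcript in GENCODE M21, assembled transcripts covered 91.0% to 100% in naïve control libraries 1, 3, 4 and 5 and 42.1% to 51.6% in the other 7 libraries, that is in naïve control libraries 2 and 6 and all 5 laser treated libraries. For Gnat1 the assembled part was 74.4% to 100% of 2328 bases. Uneven assembly was not particular to Gngt1. The assembled part spanned 32.6% to 99.2% for Rom1 and 13.1% to 98.5% for Rp1, whereas for Prph2 it was 99.3% to 100%. TPM were summed over these assembled stretches, and with TPM the log2FC of Gngt1 was 0.016 in place of -1.89. The part of the shorter assemblies in that value was not tested.

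**Figure D3:**
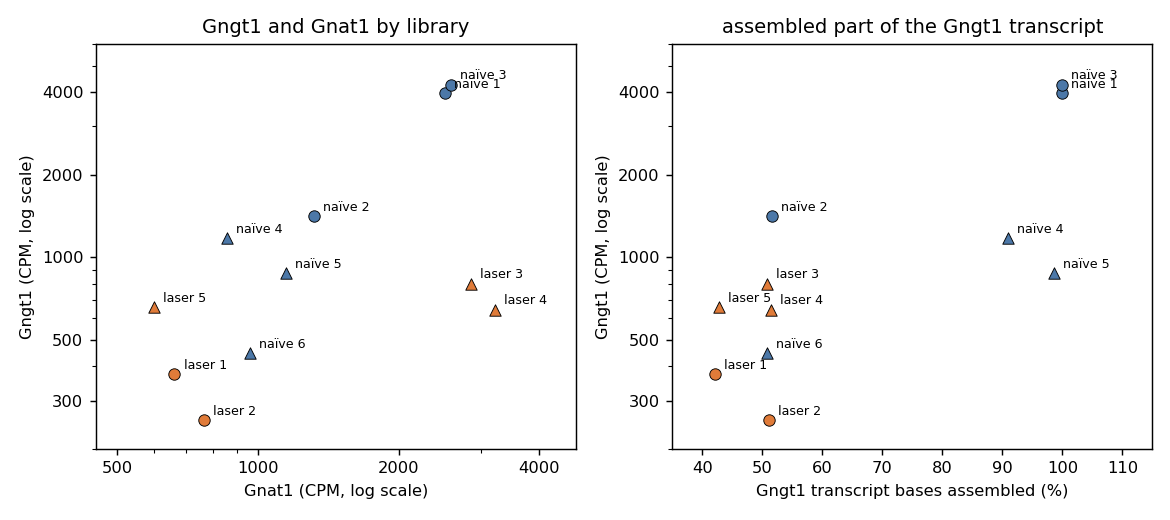
Left, Gngt1 against Gnat1 in CPM on log scales for 11 libraries (blue naïve control, orange laser treated, circles label R1, triangles label R2). Laser treated libraries 3 and 4 lie apart from the others, at the Gnat1 level of naïve control libraries 1 and 3 or above but at 801 and 643 CPM of Gngt1. Right, Gngt1 in CPM against the percentage of its 1183 transcript bases covered by assembled transcripts, where 4 naïve control libraries reach 91.0% or more and the other 7 libraries stay at or below 51.6%.

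Of the cone transducin genes, Gnat2, the alpha subunit gene, had 137, 117, 231, 79.0, 84.2 and 65.4 CPM in naïve control libraries 1 to 6 and 57.9, 90.1, 101, 94.9 and 53.2 CPM in laser treated libraries 1 to 5. Laser treated libraries 3 and 4 lay below naïve control libraries 1, 2 and 3 for Gnat2, whereas they exceeded them for Gnat1. The log2FC of Gnat2 was -0.58 ± 0.30 (SE, edgeR adjusted p = 0.370) and that of Gnb3, the cone beta subunit gene, was -0.15 ± 0.51 (SE, edgeR adjusted p = 0.930).

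The phosphodiesterase of rods is built from Pde6a and Pde6b with the inhibitory subunit Pde6g, and that of cones from Pde6c with the inhibitory subunit Pde6h. All 5 genes had negative log2FC, from -1.50 for Pde6h to -0.20 for Pde6b. Pde6h, on chromosome 6 from 136923832 to 136968865, had 95.7, 33.5, 106, 26.0, 26.2 and 8.73 CPM in naïve control libraries 1 to 6 and 8.13, 10.9, 32.5, 22.7 and 13.2 CPM in laser treated libraries 1 to 5. Every laser treated library lay at or below 32.5 CPM, within the range of naïve control libraries 2 to 6 or just under it. Its difference had a standard error of 0.59 and an adjusted p of 0.249 (edgeR). A stretch of 136 exon bases of Pde6h is shared with Arhgdib on the opposite strand, and whether the counting used strand is not given in the sources used here.

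Its rod counterpart Pde6g had 2104, 948, 2037, 647, 799 and 570.2 CPM in naïve control libraries and 454, 341, 1247, 1029 and 479 CPM in laser treated libraries, with a log2FC of -0.74 ± 0.44 (SE, edgeR adjusted p = 0.450). The catalytic subunit gene Pde6b had 736, 367, 886, 327, 371 and 253 CPM and 158, 228, 686, 879.7 and 178 CPM in the same order. Here laser treated libraries 3 and 4 reached the level of naïve control libraries 1 and 3, as they did for Gnat1. Pde6c, the cone catalytic subunit gene, had 40.8, 23.2, 40.8, 8.39, 19.1 and 20.0 CPM against 9.55, 19.2, 27.0, 33.6 and 7.15 CPM. The log2FC of Pde6b and Pde6c were -0.20 ± 0.49 (SE) and -0.40 ± 0.44 (SE, edgeR adjusted p = 0.897 and 0.740). Pde6a had a log2FC of -0.28 ± 0.50 (SE, edgeR adjusted p = 0.858).

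Cnga1 and Cngb1 encode the rod cyclic nucleotide-gated channel. Cnga1, on chromosome 5 from 72603696 to 72644275, had 489, 249, 694, 140.3, 159 and 79.5 CPM in naïve control libraries 1 to 6 and 67.0, 73.1, 188, 160.2 and 76.3 CPM in laser treated libraries 1 to 5. Naïve control libraries 1, 2 and 3 lay above every laser treated library, and the other 3 overlapped with them. The means were 302 ± 239.8 and 113 ± 57.0 CPM (SD, n = 6 and 5), with a log2FC of -1.42 ± 0.53 (SE, edgeR adjusted p = 0.235). Cngb1 had 320.3, 199, 332, 127, 157 and 132 CPM and 97.9, 129.7, 355, 269 and 96.5 CPM, with a log2FC of -0.16 ± 0.39 (SE, edgeR adjusted p = 0.900). The log2 ratio of Cnga1 to Cngb1, subunits of 1 channel, was 0.24 ± 0.60 in the controls and -0.67 ± 0.23 after laser treatment (SD, n = 6 and 5), where it ranged from -0.91 to -0.34. Naïve control library 6, at -0.73, fell within that range. The ratio follows from the unlike log2FC of both genes and is a description.

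Of the cone channel genes, Cnga3 was low in every library, whereas Cngb3 was clearly counted in some libraries, with 621 counts in naïve control library 1, and at 0 in others. Cnga3 had 2.41, 0, 2.13, 0.511, 0.867 and 0.937 CPM in naïve control libraries and 0, 0, 1.08, 1.92 and 0 CPM in laser treated libraries, and Cngb3 had 17.6, 0, 17.8, 0, 9.32 and 0.0907 CPM and 0, 1.66, 4.74, 14.1 and 3.13 CPM. With 4 and 3 libraries at 0 counts, no difference was detectable in either gene over all 11 libraries (standard errors of 1.50 and 1.55 on the log2 scale). Slc24a1, the rod exchanger gene, had 769, 498, 742, 572, 543 and 547 CPM and 512, 556, 630.4, 595 and 439 CPM. It did not separate the 4 high libraries from the others by more than 1.75-fold, and its log2FC was -0.16 ± 0.14 (SE, edgeR adjusted p = 0.641). Kcnv2, a potassium channel subunit gene of rods and cones, had a log2FC of -0.95 ± 0.43 (SE, edgeR adjusted p = 0.308), with 45.9 to 198 CPM in naïve control and 25.0 to 108 CPM in laser treated samples.

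The 5 genes of the shut-off step had negative log2FC. Sag, which encodes rod arrestin, had 1999, 963, 2244, 646, 866 and 664 CPM in naïve control libraries and 480.4, 476, 1692, 1942 and 398 CPM in laser treated libraries, and Arr3, which encodes cone arrestin, had 59.4, 31.5, 129, 24.4, 39.5 and 20.3 CPM and 12.2, 24.8, 85.2, 53.9 and 15.3 CPM. For both genes the 4 highest libraries were those with the highest sums. Their log2FC were -0.30 ± 0.50 (SE, edgeR adjusted p = 0.842) and -0.41 ± 0.58 (SE, edgeR adjusted p = 0.812). Pdc encodes phosducin, which binds the beta and gamma subunits of transducin. It had 3030.3, 949.7, 4552, 876, 1139.5 and 730.2 CPM against 546, 312, 1558, 822 and 509 CPM, a log2FC of -1.33 ± 0.56 (SE, edgeR adjusted p = 0.277). The log2 ratio of Pdc to Gnat1 was 0.04 ± 0.47 in the controls and -0.93 ± 0.73 after laser treatment (SD, n = 6 and 5). That ratio, too, follows from the unlike log2FC of both genes. Grk1, the opsin kinase gene, and Rcvrn, whose product recoverin restrains that kinase, had log2FC of -0.58 and -0.73 (edgeR adjusted p = 0.654 and 0.494).

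The cyclase genes Gucy2e and Gucy2f and the activator genes Guca1a and Guca1b had log2FC from -0.85 to -0.17 with adjusted p-values from 0.490 to 0.897 (edgeR). The lowest was Gucy2f, the highest Guca1b. Among the outer segment genes, Prph2 had 2212, 1287, 2831, 870.5, 1119 and 759 CPM and 506, 737, 2459, 2847 and 478 CPM, and its log2FC was -0.11 ± 0.53 (SE, edgeR adjusted p = 0.952). As with Gnat1, laser treated libraries 3 and 4 stood level with naïve control libraries 1 and 3. Abca4 had 196, 151, 175, 161, 146 and 148 CPM and 189, 148, 193, 207 and 122 CPM, a log2FC of 0.08 ± 0.15 (SE, edgeR adjusted p = 0.866), which became -0.03 with the GC trend removed. For Rom1 and the axonemal gene Rp1 the log2FC were -0.19 and -0.88.

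The genes of transport and of the connecting cilium, Unc119, Aipl1, Tulp1 and Rpgrip1, had log2FC from -0.57 to -0.08. Rpgrip1, which encodes a scaffold of the cilium, shares 1057 exon bases with Supt16 on the opposite strand. Impg1 and Impg2, which encode proteoglycans of the matrix between photoreceptors and RPE, had -0.59 and -0.83. Among these 6 genes the adjusted p-values were 0.520 or more (edgeR).

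Cone opsins set the wavelength to which a cone responds. Opn1sw, on chromosome 6, had 349.7, 184, 408, 69.5, 147 and 57.7 CPM in naïve control libraries 1 to 6 and 63.8, 44.1, 309, 265 and 29.3 CPM in laser treated libraries 1 to 5. Opn1mw, the medium wavelength opsin gene on the X chromosome, had 67.3, 16.5, 132, 25.3, 28.3 and 8.10 CPM and 6.02, 21.4, 65.7, 57.6 and 13.6 CPM, a 21.9-fold range and the widest of the 37 genes with counts in every library. Both were high in naïve control libraries 1 and 3 and laser treated libraries 3 and 4. Their log2FC were -0.51 ± 0.72 (SE) and -0.49 ± 0.74 (SE, edgeR adjusted p = 0.808 and 0.821). Opn1sw shares 397 exon bases with Calu on the opposite strand.

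Rod and cone genes were then set against each other. The 11 rod genes summed to 8055 ± 4740.3 CPM in the controls and 5501 ± 3398 CPM after laser treatment (SD, n = 6 and 5), and the 9 cone genes to 586 ± 395 CPM and 411 ± 281 CPM. Median log2FC were -0.28 over the rod genes, -0.51 over the cone genes and -0.57 over the 19 genes of both cell types, against -0.02 over all genes. Of the rod genes 10 of 11 were lower and 2 had an unadjusted p under 0.05, and of the cone genes 9 of 9 were lower and 1 did. Over all genes 51.5% were lower, and 7.68% were lower at that level. The log2 ratio of the rod sum to the cone sum was 3.86 ± 0.27 in the controls and 3.81 ± 0.30 after laser treatment (SD, n = 6 and 5). The difference of -0.05 was smaller than the spread within either group, and without single libraries it lay between -0.15 and 0.04. In all 11 libraries the cone genes made up between 5.06% and 8.26% of the rod and cone sum, although the sum itself varied 4.93-fold for rods and 7.49-fold for cones. These ratios are not corrected for gene length and are compared only between samples.

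**Figure D4:**
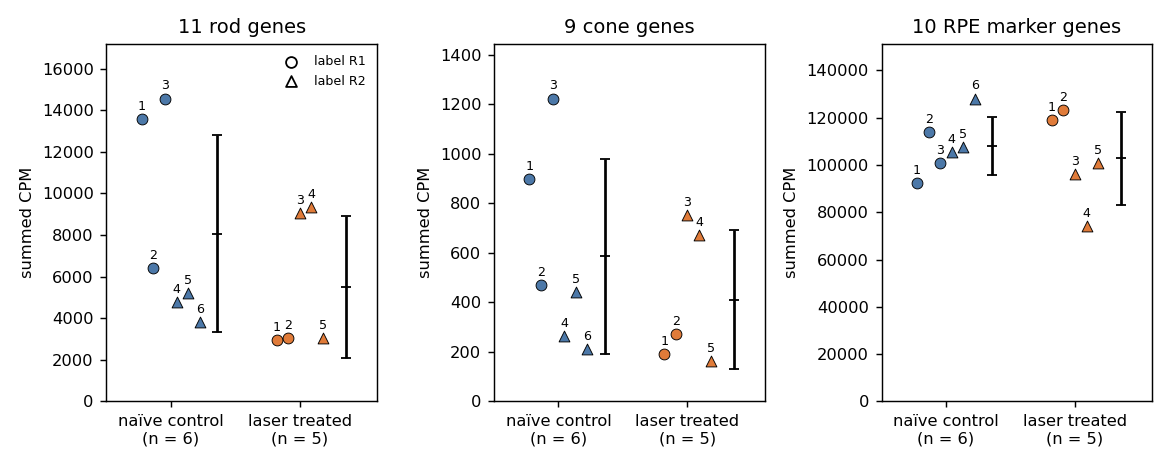
Summed CPM of 11 rod genes, 9 cone genes and 10 RPE marker genes per library, numbered by replicate, with the mean and SD of each group beside the points. Rod and cone sums are high in naïve control libraries 1 and 3 and laser treated libraries 3 and 4, whereas the RPE sum of laser treated library 4, at 74358 CPM, is the lowest of the 11.

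Among the rod and cone counterparts, the log2 ratio of Gnat1 to Gnat2 was 3.71 ± 0.30 in the controls and 4.00 ± 0.89 after laser treatment (SD, n = 6 and 5). It was 4.82 and 5.09 in laser treated libraries 3 and 4 and between 3.09 and 4.20 in the other 9 libraries. The ratio of Sag to Arr3 was 4.72 ± 0.37 and 4.75 ± 0.48, and that of Pde6b to Pde6c was 4.30 ± 0.55 and 4.33 ± 0.50, so that both differed by less than the spread between libraries. For Pde6g to Pde6h the values were 4.86 ± 0.62 and 5.34 ± 0.32. The ratios of the channel genes could not be formed, since Cnga3 and Cngb3 were at 0 counts in some libraries.

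Within the libraries that share a label the direction differed. Among the 5 libraries labelled R1, all 39 genes were lower in laser treated samples, where 50.7% of all genes were, and the median log2FC was -1.94. All but Abca4, Slc24a1 and Cngb3, that is 36, had an unadjusted p under 0.05, where 9.49% of all genes were lower at that level. Among the 36 was Cnga3, although it was at 0 counts in naïve control library 2 and in laser treated libraries 1 and 2. Among the 6 libraries labelled R2, 38 of the 39 genes had a positive log2FC, where 52.9% of all genes did, and the median was 0.64. Only 2 of these, Gnat1 and Pde6a, had an unadjusted p under 0.05, where 2.94% of all genes did. The exception was Gngt1, with -0.23 ± 0.31 (SE) within R2 and -3.32 ± 0.50 (SE) within R1. No photoreceptor gene passed an adjusted p of 0.05 in either label (lowest adjusted p = 0.128 within R1 and 0.790 within R2, edgeR).

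The difference between the labels was tested itself, with an interaction of group and label that was chosen after the data were seen. It had an unadjusted p under 0.05 for 36 of the 39 genes, where 9.5% of all genes had one, and an adjusted p under 0.05 for 0 genes (lowest adjusted p = 0.321, edgeR). The exceptions were the same 3 genes, and Cnga3, with 4 libraries at 0 counts, was again among the 36. Gnat1, for instance, had log2FC of -1.55 ± 0.31 (SE) within R1 and 1.19 ± 0.51 (SE) within R2, and Sag of -1.83 ± 0.35 and 0.91 ± 0.48. For Cnga1 and Pde6h the values were -2.74 and -3.01 within R1 and 0.18 and 0.19 within R2. The sign of the difference thus turned between the labels for 38 of the 39 genes, all but Gngt1, which was lower in both. The 2 high naïve control libraries both carry R1 and the 2 high laser treated libraries both carry R2. The counts within the labels and for the interaction therefore cannot be told apart from these 4 libraries. The 39 genes also varied together across libraries, so the genes in those counts are not independent of each other. Without those 4 libraries, 38 of the 39 genes were lower in laser treated samples, where 48.5% of all genes were, with a median log2FC of -0.78. The 4 libraries were left out for their photoreceptor values, so that no p-value is given. They were 2 of 5 laser treated but 2 of 6 naïve control libraries, a larger share of the laser treated group. The labels were also unevenly left, with naïve control library 2 but laser treated libraries 1 and 2 in R1. This count is therefore a description as well and does not show a lower level after laser treatment. Without naïve control libraries 1 and 3 alone, 11 of the 39 genes were lower, where 47.8% of all genes were, and the median was 0.15, and without laser treated libraries 3 and 4 alone all 39 were lower, where 52.5% of all genes were, and the median was -1.49. Removing high libraries from 1 group moves the difference in a known direction, so these are descriptions.

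Base composition moved with the differences. Across the 39 genes the log2FC was higher at a higher GC content of the longest transcript (Pearson's r = 0.72, Spearman's rho = 0.69, n = 39 genes measured in the same libraries), and over the 14252 genes with a GC value the same coefficients were 0.37 and 0.46. The 13 photoreceptor genes with the lowest GC content, 36.7% to 48.3%, had a median log2FC of -0.85 and held all 5 genes with an unadjusted p under 0.05. The 13 in the middle had -0.41 and the 13 with the highest, 53.6% to 59.7%, had -0.17. Gngt1 has the lowest GC content of the 39 genes, at 36.7%, followed by Pdc at 37.8%, whereas Gnat1 has 54.1%. For Gngt1 this is the value of a transcript of 2976 bases, not of its longest protein-coding transcript of 1183 bases. When a trend on GC content was removed from each library, all 39 genes were lower, where 49.2% of all genes were, and the medians of the 3 classes became -0.48, -0.38 and -0.46. Then 2 genes were lower at an unadjusted p under 0.05, where 4.25% of all genes were. These were Gngt1, at -1.44, and Pde6h, at -1.28. The part of GC content in the differences was not tested.

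**Figure D5:**
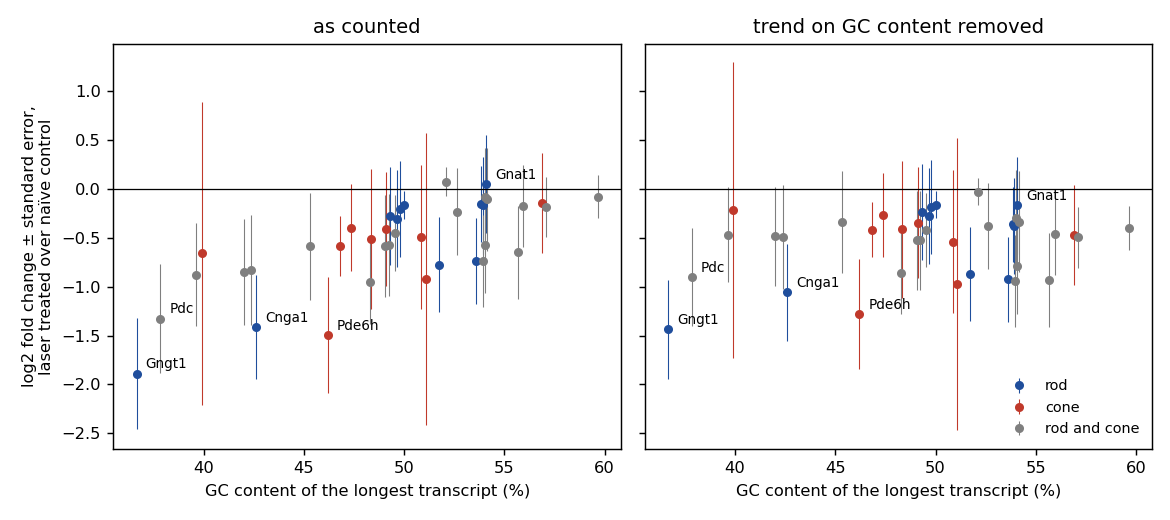
Log2 fold change (laser treated over naïve control, bars of 1 standard error from edgeR) of the 39 genes against the GC content of their longest transcript in percent, coloured by cell type. As counted (left), the values go up with GC content from -1.89 for Gngt1 to about 0, and with the trend on GC content removed from each library (right) all 39 values lie below 0 with a flatter course.

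Of 35 further photoreceptor genes listed by function, 34 were measured, and 30 of these were lower in laser treated samples, where 51.5% of all genes were, with a median log2FC of -0.34. At an unadjusted p under 0.05 there were 3, a share close to the 7.68% of all genes that were lower at that level. These were Gngt2, the cone transducin gamma subunit gene, at -1.28, Nxnl2, which encodes a thioredoxin-like protein of photoreceptors, at -1.44, and Rorb, a nuclear receptor gene of the retina, at -0.82. Within R1, 33 of the 34 were lower, where 50.7% of all genes were, and within R2, 29 were higher, where 52.9% of all genes were. Rbp3, which encodes the retinoid carrier of the space between photoreceptors and RPE, had 1061, 448, 989.5, 349.7, 366 and 267 CPM in naïve control libraries 1 to 6 and 169.9, 287, 936, 1185 and 187 CPM in laser treated libraries 1 to 5, again with laser treated libraries 3 and 4 at the level of naïve control libraries 1 and 3.

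Markers of other retinal cells were also measured. The 10 bipolar cell genes summed to 288, 89.9, 289.6, 80.7, 210.2 and 54.9 CPM in naïve control libraries and to 59.1, 86.6, 142, 136 and 72.4 CPM in laser treated libraries, with 10 of 10 lower, where 51.5% of all genes were. Of these, 1 gene, Cabp5, had an unadjusted p under 0.05 (log2FC -1.20), a share close to the 7.68% of all genes. The 9 ganglion cell genes summed to between 36.7 and 196 CPM, highest in naïve control library 1, and 7 of the 9 were lower. Among these, Pou4f2, a defining ganglion cell gene, had at most 5.71 CPM. Bipolar and ganglion cell sums were thus highest in naïve control libraries 1, 3 and 5, with naïve control library 5 not among the libraries with the highest photoreceptor sums. The 5 Müller glia genes summed to between 329 and 532 CPM, with 3 of 5 lower. The 10 measured amacrine and horizontal cell genes summed to between 370.5 and 670.1 CPM, with 9 of 10 lower. The exception, Slc6a9, a glycine transporter gene, made up most of that sum and was higher in laser treated samples at an unadjusted p under 0.05 (log2FC 0.58).

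RPE markers together ranged from 92212 to 128108 CPM in naïve control and from 74358 to 123249 CPM in laser treated samples. Of the 10 markers 6 were lower, where 51.5% of all genes were. Within the labels they moved against the photoreceptor genes. Within R1, 9 of the 10 were higher, where 7150 of 14489 genes were, with a median log2FC of 0.34. Rlbp1 and Rdh5, both genes of the visual cycle, had an unadjusted p under 0.05, where 8.09% of all genes were higher at that level. Within R2, 9 of the 10 were lower, where 6836 of 14517 genes were, with a median of -0.24. Rpe65 had an unadjusted p under 0.05, where 3.28% of all genes were lower at that level. Of the tissues around the retina, endothelial, fibroblast, macrophage, Schwann cell and skeletal muscle markers had their lowest sums in naïve control library 3, the library highest for most photoreceptor genes. Skeletal muscle markers had 23.4 CPM there and 37.2 CPM in laser treated library 3, against 106 CPM or more elsewhere, and fibroblast markers 86.3 and 96.9 CPM against 167 CPM or more. The Schwann cell sum was highest in laser treated libraries 1 and 5, at 1104 and 814 CPM, which were among the 3 lowest libraries for the photoreceptor sum. Its 4 measured genes did not move together, with 2 lower and 2 higher in laser treated samples (log2FC from -1.46 to 2.23). Over all genes 51.5% were lower. Blood markers had between 21.7 and 139 CPM. The part of tissue composition in the photoreceptor differences was not tested.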

How the data were processed

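The 11 libraries were grouped by the labels' treatment, and the group sizes are those of the labels. The authors deposited raw counts per gene in a table of 14602 genes, with fold changes and p-values of their own comparison that were not used. For each library the authors deposited StringTie transcripts with TPM in the attribute text, all of them with 1 exon, and the TPM were summed here per gene. The submitters' processing notes name bcl2fastq 2.18.0.12, Trim Galore, STAR 2.5.3a, featureCounts 1.5.3, StringTie 1.3.3, edgeR 3.22.3 and GRCm38, without roles. The strand setting is not given in the sources used here. Pre-amplification without molecular identifiers means that counts include PCR copies.

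The comparison used edgeR 4.0.16 (R 4.3.3) with TMM, filterByExpr (0 genes removed), robust quasi-likelihood fits and p-values adjusted by the Benjamini-Hochberg method across the whole table, with a threshold of 0.05. The common biological coefficient of variation was 0.58. Alternatives were DESeq2 1.42.0, upper quartile normalization, a minimum of 10 counts, no filter, no robust estimation, limma 3.58.1 on log2(TPM + 1) or log2(TPM + 0.1), the replicate number as a block, the label as a covariate or within it, and each library left out. Removal of a loess trend on GC content (span 0.3), the interaction and fits without the high libraries were chosen after seeing the data. GENCODE M21 gave positions, lengths and GC content, with 13045 genes matched by Ensembl identifier, 1197 by older symbol, 10 by symbol and 350 not matched.

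Fits without the high libraries give no p-values, since those libraries were picked by the genes described. The photoreceptor genes and marker lists were chosen with earlier results of these data known, so no list was given a p-value. Values in every library were given for the 12 genes of 6 rod and cone counterparts, the cone opsins, the gene with the highest mean count and the 3 genes with the smallest p in each direction, of which only 2 were higher. Nrl, Pdc, Prph2, Slc24a1 and Rbp3 were given in every library after their values were seen. The ratios of Gngt1 to Gnat1, Pdc to Gnat1 and Cnga1 to Cngb1 were not among the 6 planned counterparts. Formed with them was the log2 ratio of Pde6g to Pde6b, at 1.22 ± 0.19 in naïve control and 0.92 ± 0.55 in laser treated samples. That of Gngt1 to Gngt2 was 6.69 ± 0.27 and 6.05 ± 0.51 (SD, n = 6 and 5). On simulated data with 200 genes changed 4-fold, edgeR recovered 72.5% over 14344 genes, with 8.23% of what it called being false. DESeq2 over 14602 genes recovered 81.0%, with 27.7% false. The simulated counts used the spread estimated by edgeR and treated genes as independent, unlike the photoreceptor genes here. Tables used Python 3.11.15, pandas 2.3.3 and numpy 2.4.6.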

Additional observations from a re-analysis of the deposited data

Results flagged for a closer look

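Of 88 groups of values, each being 1 photoreceptor gene or sum within naïve control or within laser treated samples, 2 held a value set apart, where chance gives about 5% of groups. Both were naïve control library 3, with 129 CPM of the cone arrestin gene Arr3 against 20.3 to 59.4 CPM in the other naïve control libraries, and with 137 CPM of Impg1 against 25.3 to 64.6 CPM.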

How the results depend on the processing

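Genes past an adjusted p of 0.05 numbered 502 with DESeq2, and 2 with a minimum of 10 counts in every library, with log2(TPM + 1) and with log2(TPM + 0.1), against 0. Without single libraries they numbered 0 to 4, the most without laser treated library 2. DESeq2 called 1 photoreceptor gene. At an unadjusted p under 0.05, 699 genes were lower and 1469 higher with log2(TPM + 1), against 1122 and 1203. The 5 photoreceptor genes lower at an unadjusted p under 0.05 became 1 with the label as a covariate, 36 within R1, 0 within R2, 3 and 2 with log2(TPM + 1) and log2(TPM + 0.1), 2 with the GC trend removed and 1 to 7 without single libraries, and the higher ones became 2 within R2 from 0. The median log2 fold change over all, rod, cone and shared genes was -1.94, -1.83, -2.35 and -1.94 within R1, 0.64, 0.81, 0.89 and 0.61 within R2, 0.15, 0.31, 0.32 and 0.12 without naïve control libraries 1 and 3, and -1.49, -1.40, -1.77 and -1.57 without laser treated libraries 3 and 4. Without single libraries it spanned -0.81 to -0.20, -0.67 to -0.06, -0.91 to -0.20 and -0.93 to -0.24, and the rod to cone difference spanned -0.15 to 0.039. The causes were not tested.

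Replicate numbers did not pair the samples, as same-numbered libraries correlated by -0.06, 0.10, 0.35, -0.05 and -0.05 in their deviations from the group means. With the replicate number as a block, 12 photoreceptor genes were lower at an unadjusted p under 0.05, where 8.79% of all genes were, Gnat1 was at -0.37 and the rod to cone difference was 0.016.

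Signs turned within R2 to 0.89 for Arr3, 0.18 for Cnga1, 0.39 for Cnga3, 0.81 for Cngb1, 1.25 for Cngb3, 0.14 for Gnat2, 1.17 for Opn1mw, 1.16 for Opn1sw, 0.89 for Pde6b, 0.53 for Pde6c, 0.47 for Pde6g, 0.19 for Pde6h and 0.91 for Sag. Without naïve control libraries 1 and 3 they turned to 0.42 for Arr3, 0.059 for Cnga3, 0.31 for Cngb1, 1.01 for Cngb3, 0.76 for Opn1mw, 0.32 for Opn1sw, 0.38 for Pde6b, 0.14 for Pde6c and 0.36 for Sag. Gnat1 turned to -1.55 within R1, -0.32 with either TPM, -1.23 without laser treated libraries 3 and 4, -0.65 without all 4 and -0.17 with the GC trend removed, and Abca4 to -0.022 within R1, -0.11 without laser treated libraries 3 and 4 and -0.027 with the GC trend removed. Gngt1 turned to 0.016 with either TPM and Cngb3 to 0.11 with log2(TPM + 0.1). Without single libraries, Gnat1 spanned -0.37 to 0.26, Cngb1 -0.51 to 0.011, Pde6b -0.67 to 0.037, Abca4 -0.017 to 0.18, Arr3 -0.93 to 0.11 and Opn1mw -0.91 to 0.16.

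Groups of 6 and 5 libraries and a spread of up to 21.9-fold between libraries limit the size of difference that can be detected. Counts of 0 limit Cnga3 and Cngb3, and their log2FC depend on how such counts are treated.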
